A study of Mus musculus with 2 samples.

Results

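Zbtb16, Sall4, Nanos2, Nanos3, Lin28a, Dazl, Foxo1, Taf4b and Dppa4 are regulators linked to the identity of undifferentiated germ cells, and they were followed here in cultured mouse germ cells with and without FGF9. They were chosen by name, and all 9 were found among the 32285 genes measured in both libraries. Established cultures of THY-1+ germ cells, which are enriched for spermatogonial stem cells (SSCs), came from C57 LacZ pups and were kept over a layer of STO cells, which are mouse fibroblasts used as feeders. The FGF9-treated cells received 20 ng/ml FGF9 for 48 h and the control cells 0 ng/ml FGF, between passages 9 and 12 by 1 label. Another label of the FGF9-treated sample gives a later last passage, and the study's methods name only the last of this range. Before treatment both were grown in serum-free medium that held 3 factors, GDNF at 20 ng/ml, its co-receptor GFRA1 at 150 ng/ml and FGF2 at 1 ng/ml. The labels do not settle whether these factors stayed during treatment, for which the study names only FGF9 or albumin and describes its control cells as grown without growth factors. There was 1 droplet single-cell RNA library per treatment, made with a KIT antibody tag, so no difference between the treatments had a replicate check, no test across libraries was possible, and treatment cannot be told apart from library.

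Spermatogenesis is sustained by undifferentiated spermatogonia, in which SSCs pass into progenitors and then into differentiating cells. GFRA1, the co-receptor for GDNF, marks the stem cell end of this pool. NEUROG3 is a transcription factor of progenitors primed to differentiate, and KIT is the receptor gained at differentiation. The transcription factors ZBTB16 (also known as PLZF) and SALL4, the RNA-binding proteins NANOS2, NANOS3, LIN28A and DAZL, the PI3K-AKT target FOXO1, the TFIID subunit TAF4B and the chromatin protein DPPA4 are each linked to the identity or upkeep of early germ cells or pluripotent cells.

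Cells were kept with at least 2000 genes, at most 20% mitochondrial (mt-) unique molecular identifiers (UMIs) and a sum of Vim and S100a6 below 40 UMIs, a limit that removes feeder cells. This left 4537 of 5959 barcodes in the FGF9-treated library and 4157 of 5312 in the control library, with a median of 13067 UMIs per FGF9-treated cell and 14824 per control cell, and with 10 barcode sequences found in both. Germ cell markers (Ddx4, Mael, Tex101, Dnd1 and Stk31) were detected 5 of 5 in each library and summed to 1549 CPM in FGF9-treated cells and 1679 CPM in control cells, where CPM is UMIs per 1000000 UMIs of the summed cells. All 10 feeder markers were detected at a summed 244 CPM in FGF9-treated cells and 171 CPM in control cells, against 22027 and 19689 CPM in the feeder-side barcodes of the FGF9-treated and control libraries, those at or over the Vim and S100a6 limit with at most 2 UMIs of Ddx4, Tex101 and Mael. Of 5 Leydig markers 2 were detected in each library, at a summed 5.08 CPM in FGF9-treated cells and 4.37 CPM in control cells, nearly all from Star, with Cyp17a1, Hsd3b1 and Insl3 at 0. Of 5 macrophage markers 3 were detected in each, at a summed 2.31 CPM in FGF9-treated cells and 1.03 CPM in control cells, mostly from Cd68, with Adgre1 and Lyz2 at 0. All 5 Sertoli markers summed to 10.4 CPM in FGF9-treated cells and 7.80 CPM in control cells. Spermatocyte markers summed to 583 CPM in FGF9-treated cells and 705 CPM in control cells, nearly all from Sycp1 and Sycp3. Spo11, Dmc1 and Meiob, the other spermatocyte markers, made up little of either sum. The part of any feeder, Leydig, macrophage, Sertoli or spermatocyte cells in the ratios was not tested. A CPM has an exact 95% Poisson interval and a log2 ratio an exact 95% interval, which cover counting error only. A gene was called past the fold where its log2 ratio exceeded 0.5 in size and the interval excluded 0, over genes with at least 50 UMIs in the compared sums together.

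Levels can be set beside each other between genes on the CPM scale because UMIs are read from transcript ends and do not scale with gene length. Dazl, a translational regulator that licenses germ cells, was by far the most abundant, at 1823 CPM in FGF9-treated cells and 1729 CPM in control cells. Zbtb16, Foxo1 and Nanos3 came next, between 107 and 143 CPM in FGF9-treated cells and between 142 and 182 CPM in control cells. Dppa4, Taf4b and Sall4 lay between 56.0 and 64.9 CPM in either library. Among these, Dppa4 at 64.9 CPM and Taf4b at 63.5 CPM had overlapping counting intervals in FGF9-treated cells, as did Taf4b at 61.9 CPM and Sall4 at 60.5 CPM in control cells. Lin28a, which blocks let-7 maturation, had 25.4 CPM in FGF9-treated cells and 35.4 CPM in control cells. Nanos2, which holds SSCs in the undifferentiated state, was the scarcest, at 8.99 CPM in FGF9-treated cells and 5.72 CPM in control cells. The order of the genes by level differed between the libraries only in that Zbtb16 stood above Foxo1 in FGF9-treated cells and below it in control cells, and Dppa4 above Taf4b and Sall4 in FGF9-treated cells and below them in control cells.

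To ask how stable each regulator was between libraries, the ratio of FGF9-treated over control cells was taken for each gene. Nanos2 was higher and Foxo1 lower in FGF9-treated cells past the fold, and the other 7 regulators were not past it. Thus 2 of 9 were past the fold, where 20.9% of all 15314 genes tested were, and the median size of the log2 ratio was 0.21 over the 9 regulators and 0.22 over all genes. The regulators were thus no more stable between the libraries than the typical gene. Nanos2 had 603 UMIs in FGF9-treated cells and 387 in control cells, a log2 ratio of 0.65 (0.47 to 0.84) or 1.57-fold. Foxo1 had 120 CPM in FGF9-treated cells and 182 CPM in control cells, a log2 ratio of -0.59 (-0.63 to -0.55).

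Lin28a and Nanos3 lay just inside the limit. The log2 ratio of Lin28a was -0.48 (-0.57 to -0.39), and it passed the fold when cells were thinned to 5000 UMIs (-0.54). Nanos3, a germ cell survival factor, had 107 CPM in FGF9-treated cells and 142 CPM in control cells, a log2 ratio of -0.41 (-0.45 to -0.37). Nanos3 is also one of the genes the study listed as progenitor markers on these samples, so its direction is not independent of that choice. Zbtb16 had 143 CPM in FGF9-treated cells and 166 CPM in control cells, a log2 ratio of -0.21 (-0.25 to -0.17). Dppa4 had a log2 ratio of 0.21 (0.15 to 0.28). For the remaining 3 the difference was small: Dazl had a log2 ratio of 0.08 (0.06 to 0.09), Taf4b of 0.04 (-0.02 to 0.10) and Sall4 of -0.04 (-0.10 to 0.03), so that the intervals of Taf4b and Sall4 included 0.

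**Figure D1:**
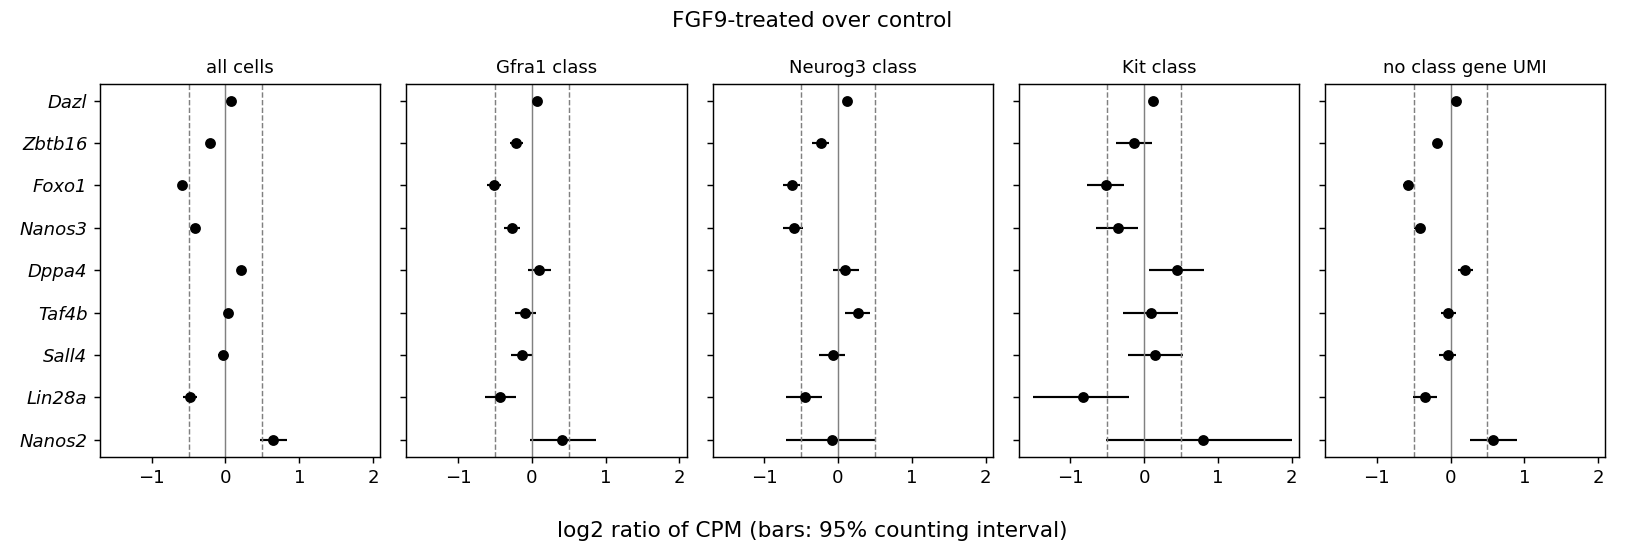
Log2 ratio of CPM, FGF9-treated over control (horizontal axis), for the 9 regulators (rows) in all cells, in each class and in cells with no UMI of a class gene (panels). Points are ratios of summed UMIs, bars 95% counting intervals, and dashed lines mark 0.5 in size. Foxo1 lies left of the lower line in all 5 panels, between -0.63 and -0.51, whereas Dazl stays between 0.07 and 0.12.

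The promoters of Nanos2, which was higher in FGF9-treated cells, and of Foxo1 and Nanos3, both with fewer UMIs there, are shown as examples. Etv5, an ETS family transcription factor, had a log2 ratio of 4.02 (3.76 to 4.29) in FGF9-treated over control cells, so the core of ETS sites was searched, and binding was not measured. Sequences are those of RefSeq on build GRCm38.p6, on the strand of the gene, up to 250 bases before its start and ending before any exon of the gene in the annotation. The Nanos3 window lies inside the span that GENCODE gives the gene. Capitals mark GGAAG, this core, on either strand.
Nanos2, chr7:18987274-18987399, plus strand: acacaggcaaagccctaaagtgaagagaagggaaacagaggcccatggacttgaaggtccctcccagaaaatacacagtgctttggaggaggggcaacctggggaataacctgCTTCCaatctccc
Nanos3, chr8:84176553-84176802, minus strand: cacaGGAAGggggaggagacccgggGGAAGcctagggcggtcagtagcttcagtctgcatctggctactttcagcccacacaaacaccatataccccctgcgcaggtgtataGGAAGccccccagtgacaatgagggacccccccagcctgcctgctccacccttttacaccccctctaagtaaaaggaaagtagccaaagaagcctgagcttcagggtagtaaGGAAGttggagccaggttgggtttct
Foxo1, chr3:52268087-52268335, plus strand: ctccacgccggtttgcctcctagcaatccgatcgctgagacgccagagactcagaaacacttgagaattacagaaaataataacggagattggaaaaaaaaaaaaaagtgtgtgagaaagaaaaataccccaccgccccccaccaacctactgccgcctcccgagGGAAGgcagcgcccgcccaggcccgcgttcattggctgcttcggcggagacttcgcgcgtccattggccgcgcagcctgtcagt
GGAAG occurred 1 time in the 126 bases of Nanos2, where 37.8% of 27025 genes hold it in the same part of the window, 4 times in the 250 bases of Nanos3, where 63.6% hold it, and 1 time in the 249 bases of Foxo1, where 63.4% do. The FOXO motif GTAAACA was found in none of the 3, and 3.09% of genes hold it in 250 bases. A match is a match of letters only. Promoter windows were found for 5 of the 9 regulators. Of those not shown, Lin28a held GGAAG 2 times in 225 bases, where 59.0% of genes hold it. Dazl held it 0 times in 234 bases, where 60.6% do.

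Cells were next divided by the class genes themselves. The Gfra1, Neurog3 and Kit classes hold cells with a UMI of only that gene among the 3. The Gfra1 class held 1812 FGF9-treated cells and 451 control cells, the Neurog3 class 362 FGF9-treated cells and 1196 control cells, and the Kit class 79 FGF9-treated cells and 294 control cells. A further 1862 FGF9-treated cells and 1638 control cells had none of the 3, and 422 FGF9-treated cells and 578 control cells had more than 1 and were left out of the classes. Within the FGF9-treated library, the Neurog3 class over the Gfra1 class had higher Sox3, a progenitor gene, and Sohlh1 and Crabp1, genes of differentiating spermatogonia, at log2 ratios of 1.00, 0.68 and 0.56, and less Ret, the GDNF receptor kinase, at -0.43. In control cells the same ratios were 1.01, 0.25, 0.30 and -1.16, so each of these 4 genes had the same sign in both libraries. The Kit and Neurog3 classes were set apart less by these genes. Kit over Neurog3, in the same order, they had -0.16, -0.13, 0.06 and -0.27 in FGF9-treated cells, with all 4 intervals including 0. In control cells they had -0.30, 0.14, 0.07 and -0.31, and only the interval of Crabp1 included 0. The median number of KIT tags was 405 in the Kit class and 307 in the Gfra1 class of FGF9-treated cells, and 656.5 in the Kit class and 426 in the Gfra1 class of control cells. A class rests on as little as 1 UMI. With each cell thinned to 5000 UMIs, a Gfra1 UMI was found in 1127 of 4515 FGF9-treated cells and in 312 of 4141 control cells (7.53%), against 3 of 56 feeder-side barcodes in the FGF9-treated library and 2 of 25 in the control library. The control share was thus no higher than that of the feeder-side barcodes, which rests on 2 of 25. By share alone, Gfra1 in control cells cannot be told from that of these barcodes. Ret and Etv5 were nevertheless higher in the Gfra1 than in the Neurog3 class of control cells. Control feeder-side barcodes had 12.3 CPM of Gfra1 and 22.6 CPM of Dazl, against 16.5 and 1729 CPM in control cells. Whether the Gfra1 of feeder-side barcodes is free RNA or their own RNA was not tested. Neurog3 and Kit were found in none of the feeder-side barcodes. The part of free RNA in the class ratios was not tested.

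The lower Foxo1 of FGF9-treated cells was seen in every class. FOXO1 is held in the cytoplasm by PI3K-AKT signalling and is needed for SSC upkeep. In FGF9-treated cells its level was 118, 122 and 119 CPM in the Gfra1, Neurog3 and Kit classes and 121 CPM in cells with none of the class genes. In control cells it was 168, 188 and 171 CPM in these classes and 180 CPM in cells with none. Every FGF9-treated level thus lay below every control level, and the share of all genes separated in this way was not taken. The log2 ratios of FGF9-treated over control cells were -0.51 in the Gfra1 class, -0.63 in the Neurog3 class, -0.52 in the Kit class and -0.58 in cells with none, all past the fold, where 14.3%, 15.3%, 12.4% and 17.6% of genes were. The Gfra1 class value lay close to the limit and was no longer past it in 10 of 16 alternatives. It ranged from -0.59 to -0.37 over the alternatives. In the Kit class the call was lost in 9 of 16, and the ratio was 0.21 (-0.30 to 0.70) when only cells without a UMI of the cycling genes Mki67 and Top2a were kept.

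The library difference of Nanos2 within classes depended on how the classes were set. With a class held to cells with no UMI of the other class genes, it had 9.43 CPM in the Gfra1 class of FGF9-treated cells and 7.10 CPM in that of control cells, a log2 ratio of 0.41 (-0.02 to 0.87). In the Neurog3 class it had 5.50 CPM in FGF9-treated cells and 5.81 CPM in control cells, a log2 ratio of -0.08 (-0.71 to 0.51). The Kit class held only 9 Nanos2 UMIs in FGF9-treated cells and 20 in control cells, too few to be tested, and the interval of its ratio of 0.80 included 0. In cells with none of the class genes Nanos2 had 8.55 CPM in FGF9-treated cells and 5.73 CPM in control cells, a log2 ratio of 0.58 (0.26 to 0.90) that was past the fold. This call was kept in 14 of 16 alternatives, and the ratio was 0.27 after thinning to 5000 UMIs. When every cell with a UMI of the class gene was used, the library ratio was past the fold in all 3 classes. It was 0.61 (0.28 to 0.94) for Gfra1, 0.62 (0.26 to 0.97) for Neurog3 and 0.97 (0.26 to 1.65) for Kit. These wider classes share the cells with more than 1 class gene, so the 3 ratios are not separate. In the shared cells Nanos2 had 11.4 CPM in the FGF9-treated and 5.36 CPM in the control library. The share of all genes past the fold was not taken for these classes. Whether the Gfra1 and Neurog3 ratios differ from each other was not tested.

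Nanos3 showed its largest library ratio in the Neurog3 class. It had 100 CPM in FGF9-treated cells and 152 CPM in control cells of this class, a log2 ratio of -0.60 (-0.74 to -0.47) that was past the fold. This call was kept in 12 of 16 alternatives and lost after thinning (-0.44), in cells without Mki67 or Top2a UMIs (-0.45), with every cell that had a Neurog3 UMI (-0.47) and at a fold of 1. In the Gfra1 class it had 110 CPM in FGF9-treated cells and 132 CPM in control cells, a log2 ratio of -0.27 (-0.37 to -0.16). Lin28a had log2 ratios of -0.43, -0.45 and -0.83 in the Gfra1, Neurog3 and Kit classes and -0.34 in cells with none. Of these only the Kit class value was past the fold. It rested on 24 UMIs in FGF9-treated cells and 165 in control cells, and was 0.17 (-0.85 to 1.09) after thinning to 5000 UMIs. Taf4b had a log2 ratio of 0.27 (0.09 to 0.43) in the Neurog3 class and of -0.09 (-0.23 to 0.06) in the Gfra1 class. Dazl stayed between 0.07 and 0.12 in all classes, Zbtb16 between -0.23 and -0.14, and Sall4 between -0.13 and 0.15. The Kit class ratio of Sall4 was 0.86 and past the fold when only cells without Mki67 or Top2a UMIs were kept. Over the 4 sets of cells, 7 of 36 ratios were past the fold, where between 12.4% and 17.6% of genes were, 4 of them those of Foxo1, and only that of Nanos2 in the Kit class had too few UMIs to be tested.

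**Figure D2:**
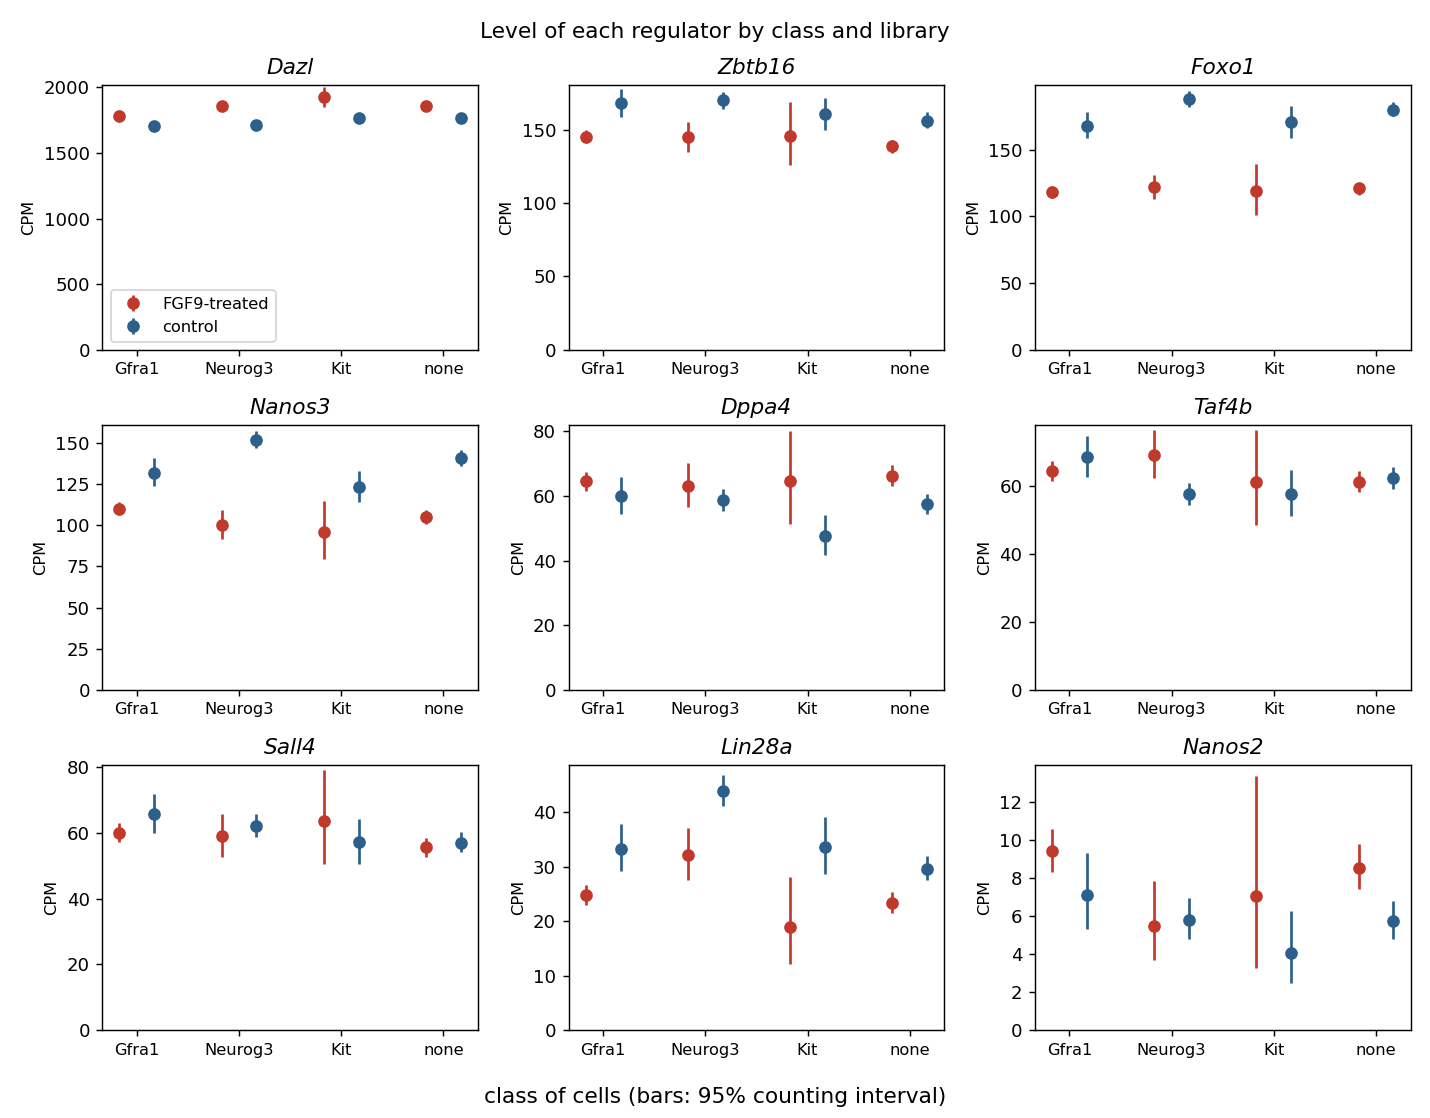
Level of each regulator in CPM (vertical axes, from 0) in the Gfra1, Neurog3 and Kit classes and in cells with none of these genes (horizontal axes), in FGF9-treated cells (left point of each pair) and control cells (right point). Bars are 95% Poisson intervals. Foxo1 lies at 118 to 122 CPM in FGF9-treated cells and at 168 to 188 CPM in control cells. Lin28a is highest in the Neurog3 class of control cells at 44.0 CPM, and the bars of Nanos2 are wide because its sums hold 9 to 262 UMIs.

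The next comparison asked how stable each regulator was between classes of 1 library. Zbtb16, Sall4 and Dazl were not past the fold between any of the classes. When only cells without Mki67 or Top2a UMIs were kept, Sall4 was past it for the Kit over the Gfra1 class of control cells, at -0.56. Zbtb16 had 145, 145 and 146 CPM in the Gfra1, Neurog3 and Kit classes of FGF9-treated cells, and 168, 170 and 161 CPM in those of control cells. Sall4 had 60.1, 59.0 and 63.7 CPM in the same order in FGF9-treated cells, and 65.8, 62.1 and 57.2 CPM in control cells. Dazl had 1786, 1862 and 1925 CPM in FGF9-treated cells and 1705, 1714 and 1768 CPM in control cells. Over the comparisons of classes, 3 in each library, 3 of 54 ratios were past the fold, all of them of Nanos2 or Lin28a, the scarcest members, where between 2.99% and 6.60% of genes were past it, so the share of the regulators lay near that of all genes. All 3 calls were lost after thinning, with at most 10% mt- UMIs, in cells without Mki67 or Top2a UMIs or with a class set at 2 UMIs. Between the Kit and Gfra1 classes of FGF9-treated cells 0 of 9 were, where 5.20% of genes were.

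Nanos2 was lower in the Neurog3 class than in the Gfra1 class of FGF9-treated cells, at 5.50 CPM from 30 UMIs in the Neurog3 class and 9.43 CPM from 262 UMIs in the Gfra1 class. The log2 ratio was -0.78 (-1.38 to -0.23), and Nanos2 was the only 1 of 9 regulators past the fold where 4.50% of genes were. In control cells Nanos2 had 5.81 CPM in the Neurog3 class and 7.10 CPM in the Gfra1 class, a log2 ratio of -0.29 (-0.77 to 0.21). The Kit class of control cells had 4.07 CPM from 20 UMIs and the Gfra1 class 7.10 CPM from 52 UMIs, a log2 ratio of -0.80 (-1.63 to -0.03), 1 of 9 past the fold where 5.95% of genes were. Both calls held in 10 of 16 alternatives. When every cell with a UMI of the class gene was used, the FGF9-treated ratio was -0.18 (-0.51 to 0.13) and no longer past the fold. The control ratio of Kit over Gfra1 was then -0.56 (-1.07 to -0.06). Classes set in this way share the cells with UMIs of more than 1 class gene. Such cells count on both sides, which draws the sums together, and the intervals do not allow for it. In the thinned cells the FGF9-treated ratio was -0.68 (-1.79 to 0.28) and the control ratio -0.26 (-1.98 to 1.30), so that at 5000 UMIs per cell a difference was not detectable.

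Lin28a was highest in the Neurog3 class of both libraries. In FGF9-treated cells it had 32.1 CPM in the Neurog3 class and 24.8 CPM in the Gfra1 class, a log2 ratio of 0.37 (0.12 to 0.61). In control cells it had 44.0 CPM in the Neurog3 class and 33.3 CPM in the Gfra1 class, a log2 ratio of 0.40 (0.19 to 0.61). Neither was past the fold, and in control cells 0 of 9 regulators were past it for this comparison where 6.60% of genes were. The Kit class had less Lin28a than the Neurog3 class, with 18.9 CPM from 24 UMIs in the Kit class and 32.1 CPM in the Neurog3 class of FGF9-treated cells, a log2 ratio of -0.77 (-1.45 to -0.14). This was the only 1 of 8 regulators tested past the fold where 4.37% of genes were. It was 0.34 (-0.67 to 1.25) after thinning. In control cells Lin28a had 33.6 CPM in the Kit class and 44.0 CPM in the Neurog3 class, a log2 ratio of -0.39 (-0.64 to -0.15), with 0 of 9 regulators past the fold where 2.99% of genes were.

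Depth moved with several regulators, and most with Lin28a. No regulator was past the fold between cells above and below the median UMIs of their library, where 4.89% of genes were in FGF9-treated cells and 2.35% in control cells. Cells above the median UMIs had more Lin28a than those below it, with a log2 ratio of 0.46 (0.31 to 0.62) in FGF9-treated cells and 0.42 (0.29 to 0.54) in control cells. In FGF9-treated and control cells the same ratio was -0.37 and -0.12 for Nanos3, and -0.35 and -0.03 for Nanos2. It was 0.18 and 0.19 for Taf4b, and -0.12 and -0.16 for Dppa4. Zbtb16, Sall4, Dazl and Foxo1 lay between -0.07 and 0.11 in either library. The median depth of the Neurog3 and Gfra1 classes was 13264 and 13378 UMIs in FGF9-treated cells, and 15699 and 14406 UMIs in control cells. With cells thinned to 5000 UMIs the Lin28a ratio of the Neurog3 over the Gfra1 class was 0.12 (-0.36 to 0.58) in FGF9-treated cells and 0.66 (0.26 to 1.08) in control cells. Without the deepest and the shallowest decile of cells, an alternative chosen after seeing the data, it was 0.45 in each library.

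Smaller class differences were found for the other regulators. Nanos3 had 100 CPM in the Neurog3 class and 110 CPM in the Gfra1 class of FGF9-treated cells, against 152 CPM in the Neurog3 class and 132 CPM in the Gfra1 class of control cells. Its log2 ratio was thus -0.14 (-0.27 to -0.01) in FGF9-treated cells and 0.20 (0.10 to 0.31) in control cells. Taf4b had 69.3 CPM in the Neurog3 class and 64.5 CPM in the Gfra1 class of FGF9-treated cells, a log2 ratio of 0.10 (-0.06 to 0.27). In control cells it had 57.6 CPM in the Neurog3 class and 68.6 CPM in the Gfra1 class, a log2 ratio of -0.25 (-0.40 to -0.10). Foxo1 had a log2 ratio of 0.04 (-0.08 to 0.16) in FGF9-treated cells and of 0.16 (0.06 to 0.25) in control cells. Dppa4 was level in FGF9-treated cells, with 64.5 CPM in both the Kit and the Gfra1 class, and had 47.6 CPM in the Kit class and 60.0 CPM in the Gfra1 class of control cells, a log2 ratio of -0.33 (-0.57 to -0.10). The test of whether a class ratio differs between the libraries was not available with 1 library each.

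**Figure D3:**
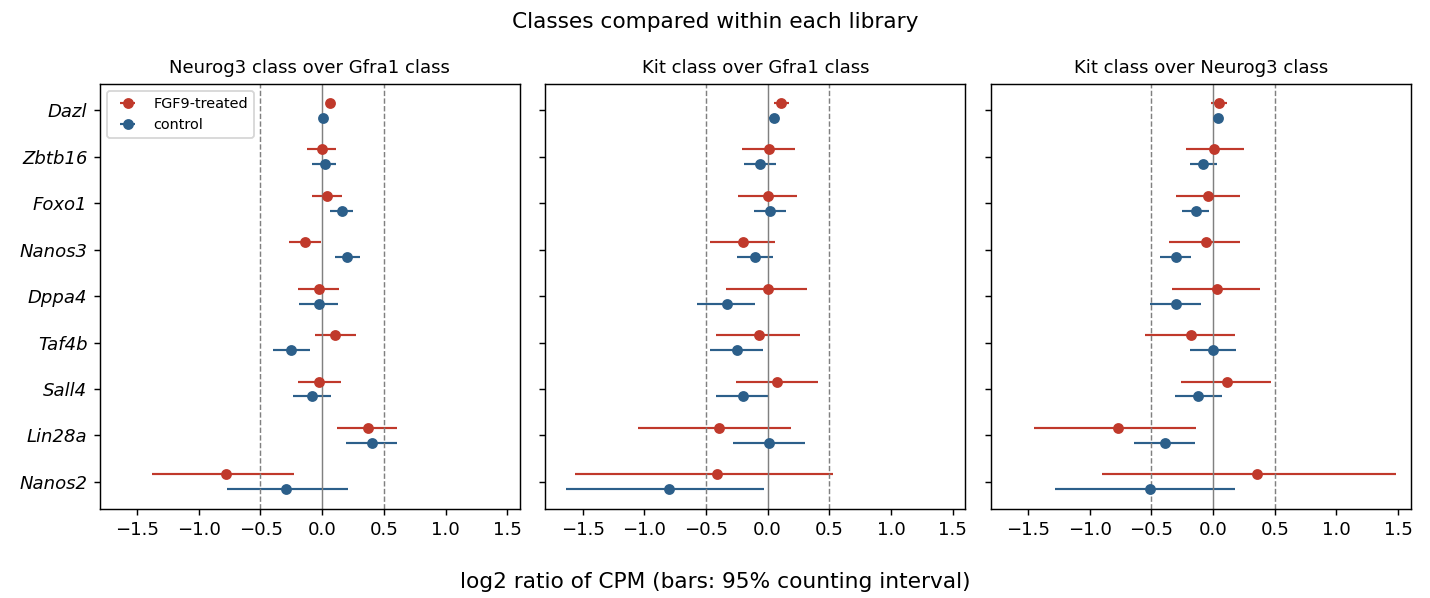
Log2 ratio of CPM between classes (horizontal axes) for the 9 regulators (rows), in FGF9-treated cells (upper point of each pair) and control cells (lower point). Bars are 95% counting intervals and dashed lines mark 0.5 in size. Dazl, Zbtb16 and Foxo1 stay between -0.14 and 0.16 in all 3 panels, while Nanos2 has the widest bars.

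Set against cells with none of the class genes, 2 of 54 ratios were past the fold. Lin28a had 44.0 CPM in the Neurog3 class and 29.6 CPM in cells with none in control cells, a log2 ratio of 0.57 (0.43 to 0.72), 1 of 9 where 1.70% of genes were past the fold. The same ratio was 0.46 (0.20 to 0.70) in FGF9-treated cells. Nanos2 had 5.50 CPM in the Neurog3 class and 8.55 CPM in cells with none in FGF9-treated cells, a log2 ratio of -0.64 (-1.24 to -0.08), 1 of 9 where 2.5% were. The Lin28a call was lost only at a fold of 1, whereas that of Nanos2 was kept in 10 of 15 alternatives, with values from -0.73 to -0.13. For the other 4 comparisons 0 of 9 were past the fold, where 2.22% of genes were for the Gfra1 class and 4.19% for the Kit class of FGF9-treated cells, and 4.86% for the Gfra1 class and 2.37% for the Kit class of control cells. Cells with none were shallower, with medians of 12096 UMIs in FGF9-treated cells and 13634 in control cells.

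The KIT antibody tag gave a further readout that does not rest on Kit RNA. Its median count was 309 in FGF9-treated cells and 439 in control cells. Barcodes outside the filter had medians of 314 and 439 in the same order, and feeder-side barcodes 330 and 396. Much of a tag count can thus be background, and its part in the quartiles was not tested. Kit RNA itself was higher in the top than in the bottom quartile of KIT tags, at log2 ratios of 2.27 in FGF9-treated cells and 2.54 in control cells. No regulator was past the fold between these quartiles, where 2.31% of genes were in FGF9-treated cells and 2.98% in control cells. In control cells Dppa4 had 47.0 CPM in the top quartile and 59.9 CPM in the bottom quartile, a log2 ratio of -0.35 (-0.48 to -0.22), close to its ratio of the Kit over the Gfra1 class. Nanos2 had 4.72 CPM in the top quartile and 6.66 CPM in the bottom quartile, at -0.50 (-0.92 to -0.08), Lin28a a ratio of -0.27 (-0.44 to -0.10), Taf4b of -0.22 (-0.34 to -0.09) and Nanos3 of -0.19 (-0.27 to -0.11). In FGF9-treated cells Dppa4 had a ratio of 0.08 (-0.05 to 0.20), Nanos2 of 0.00 (-0.33 to 0.34), Lin28a of 0.08 (-0.11 to 0.28), Taf4b of -0.13 (-0.25 to 0.00) and Nanos3 of -0.16 (-0.25 to -0.06). Zbtb16, Sall4, Dazl and Foxo1 lay between -0.09 and 0.12 in either library. The top quartiles were deeper, with medians of 15297 UMIs in the top and 11687 in the bottom quartile of FGF9-treated cells, and 16677 in the top and 14229 in the bottom quartile of control cells.

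Cells were also split by a UMI of Mki67 or Top2a, genes of cycling cells. Such a UMI was found in 3280 FGF9-treated cells and not in 1257, and in 3076 control cells and not in 1081. Mki67 had 156 CPM in FGF9-treated and 41.4 CPM in control cells, and Top2a 349 and 161 CPM. The split therefore need not divide the libraries alike. In FGF9-treated cells Nanos2 had 8.07 CPM with and 12.4 CPM without such a UMI, a log2 ratio of -0.62 (-0.88 to -0.36), past the fold where 6.48% of genes were. In control cells Nanos2 had 5.71 CPM with and 5.74 CPM without, a ratio of -0.01 (-0.36 to 0.36), and 0 of 9 regulators were past the fold where 2.68% of genes were. In cells without such a UMI the library ratio of Nanos2 was 1.11 (0.73 to 1.51). For cells with over without such a UMI, Dppa4 had ratios of -0.37 in FGF9-treated cells and -0.28 in control cells, Nanos3 of -0.39 and -0.12, and Taf4b of 0.21 and 0.19. Cells with a UMI of Mki67 or Top2a were the deeper ones, at a median of 14248 UMIs with and 10833 without in FGF9-treated cells, and 15550 with and 12802 without in control cells. The part of depth in these ratios was not tested.

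The share of cells in which a regulator was found followed its level. To compare shares at equal depth, each cell was thinned to 5000 UMIs, leaving out 22 FGF9-treated cells and 16 control cells. Dazl was found in 4512 of 4515 FGF9-treated cells and 4139 of 4141 control cells. Foxo1 was found in 44.7% (43.3% to 46.2%) of FGF9-treated cells and 59.2% of control cells, against 8.93% of 56 FGF9-treated and 16.0% of 25 control feeder-side barcodes. Zbtb16 was found in 49.4% of FGF9-treated cells and 53.1% of control cells, and Nanos3 in 39.1% and 47.8% of them. Taf4b, Sall4 and Dppa4 lay between 23.1% and 26.2% in either library. Lin28a was found in 10.8% (9.94% to 11.8%) of FGF9-treated cells and 15.0% of control cells. Nanos2 was found in 4.23% (3.66% to 4.86%) of FGF9-treated cells and 2.68% of control cells. The feeder-side barcodes held Dazl in 9 of 56 FGF9-treated and 2 of 25 control barcodes, Zbtb16 in 2 of 25 control barcodes, and none of the other 6 regulators, which allows a share of up to 5.36% in the FGF9-treated and 12.0% in the control barcodes. The Nanos2 shares lie below these limits, so at this depth they cannot be told from background by share alone. Without thinning, Nanos2 was found in 11.4% of FGF9-treated cells and 8.30% of control cells and still in none of the feeder-side barcodes, whose median depth was 25766 UMIs in the FGF9-treated library and 19048 UMIs in the control library. Foxo1 was then found in 76.1% of FGF9-treated cells and 88.7% of control cells, against 33.9% and 48.0% of their feeder-side barcodes, and Lin28a in 27.0% of FGF9-treated cells and 36.5% of control cells.

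**Figure D4:**
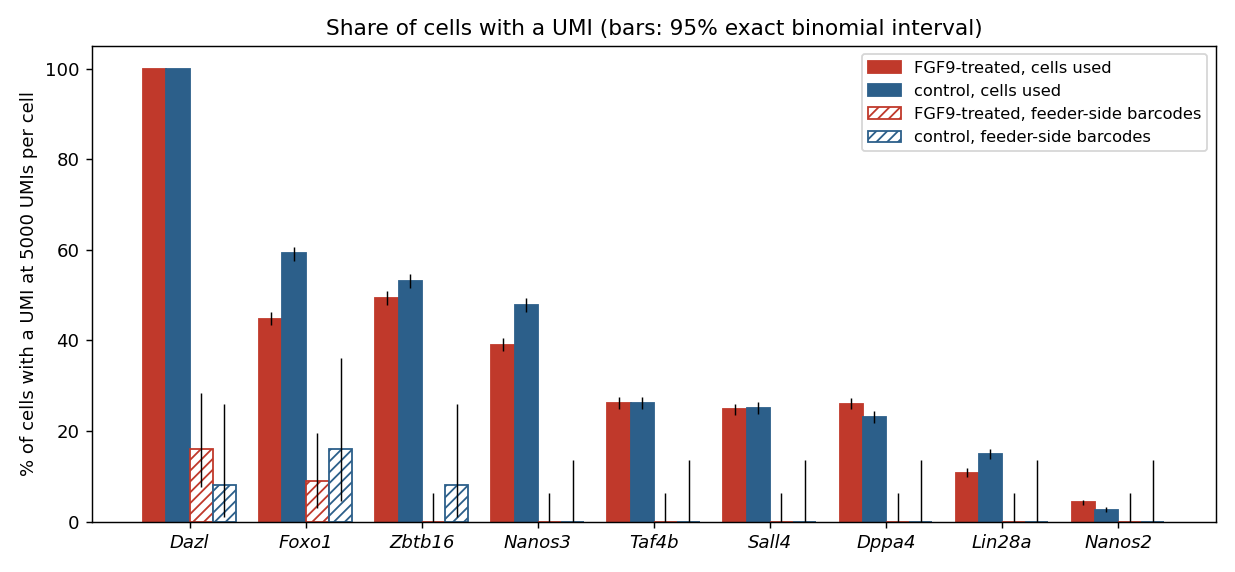
Share of cells with a UMI of each regulator (vertical axis, percent) at 5000 UMIs per cell, in FGF9-treated and control cells (filled bars) and in feeder-side barcodes (hatched bars), with exact 95% binomial intervals. Foxo1 is found in 44.7% of FGF9-treated cells and 59.2% of control cells, and Dazl in nearly all cells.

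At 5000 UMIs a median of 3 of the 9 regulators was found per cell in both libraries, and all 9 in 1 FGF9-treated cell. The paralogs Nanos2 and Nanos3 could be found in the same cell. Nanos3 was found in 45.5% (38.3% to 52.9%) of the 191 FGF9-treated cells with a Nanos2 UMI and in 38.9% of those without, and in 51.4% (41.7% to 61.0%) of the 111 control cells with a Nanos2 UMI and in 47.7% of those without. Finding Nanos2 in a cell therefore did not go with fewer Nanos3 detections, although the 2 genes had opposite library ratios.

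As a single measure of stability, the highest level was set over the lowest among 8 sums, the 4 sets of cells in both libraries. The log2 range was 0.18 for Dazl, 0.24 for Sall4, 0.27 for Taf4b and 0.30 for Zbtb16, all under the median of 0.40 over 7320 genes, those for which every sum held 20 UMIs or more. It was 0.48 for Dppa4, and 0.66 for both Nanos3 and Foxo1. Lin28a had a range of 1.22, from 44.0 CPM in the Neurog3 class of control cells to 18.9 CPM in the Kit class of FGF9-treated cells, at percentile 96.9 of these genes. Nanos2 had a range of 1.21 but fell short of 20 UMIs in the Kit class of FGF9-treated cells and was not ranked. A range grows with counting error, so part of that of Lin28a, whose lowest sum held 24 UMIs, is counting error. The same holds for compared genes with sums near 20 UMIs. The low ranks of regulators with more UMIs, such as Dazl with 2448 in its lowest sum, can thus partly reflect their counts.

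**Figure D5:**
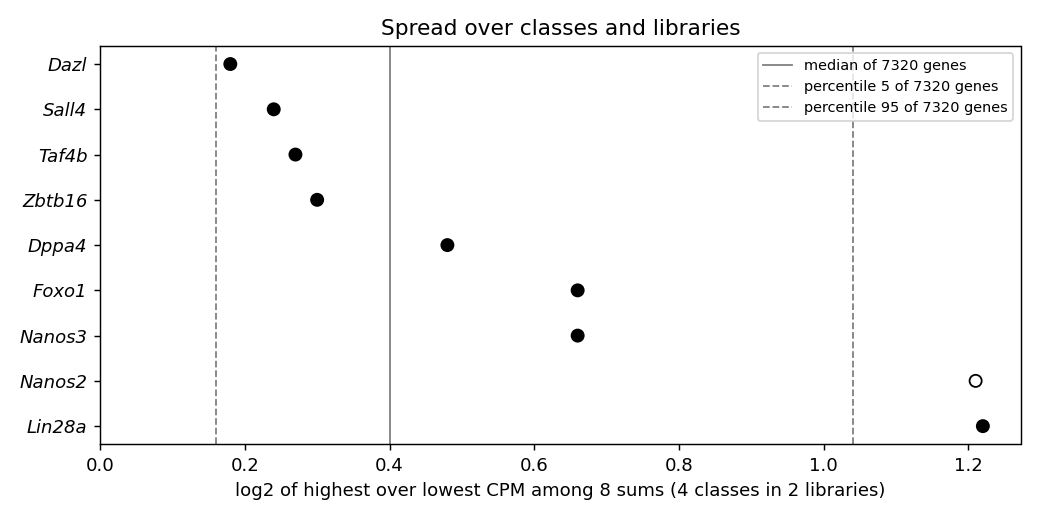
Log2 range of CPM (horizontal axis) of each regulator (rows) over 8 sums, 4 sets of cells in both libraries. The solid line is the median and the dashed lines percentiles 5 and 95 of 7320 genes (0.40, 0.16 and 1.04), and the open circle is Nanos2, which was not ranked. Dazl lies nearest the left line and Lin28a right of the right line.

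Across these 8 sums, which share their libraries, Foxo1 and Nanos3 followed each other with a Pearson r of 0.94, Foxo1 and Zbtb16 of 0.91, and Nanos3 and Dazl of -0.90. The genes most like Foxo1 were Psme2 (r of 1.00) and Rin2 (0.99), those most like Nanos3 Arl2bp and Tbcb (0.98 each), those most like Lin28a Adad2 and Polr2h (0.97 each), and those most like Dppa4 Tpst1 (0.97) and Cct2 (0.96). For Dazl they were Itgb3bp (0.98) and Zfp869 (0.97), and for Zbtb16 Cmip (0.99) and Ggh (0.97). Sall4 was most like Ypel2 (0.93) and Prrc2b (0.90), and Taf4b most like Proser2 and N4bp2l2 (0.91 each). With 8 points and 7320 genes these are descriptions.

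In GENCODE on build GRCm38 (mm10) all 9 are protein-coding genes. Nanos2 is at chr7:18987400-18988962, Foxo1 at chr3:52268336-52353221, Lin28a at chr4:134003330-134018841 and Dazl at chr17:50279395-50293636. Zbtb16 is at chr9:48654297-48836222, Sall4 at chr2:168748332-168767943 and Dppa4 at chr16:48283733-48294237. Nanos3 at chr8:84173731-84185217 overlaps the genes of the microRNAs Mir181c and Mir181d on its own strand, and Foxo1 and Taf4b each overlap 1 predicted gene on theirs, so a part of their UMIs could be split.

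The partners and relatives of the regulators were described by lists. Among 14 tested genes listed as paralogs or close relatives, 1 was higher and 2 were lower past the fold in FGF9-treated over control cells. Of all genes 10.3% were higher and 10.7% lower. The median log2 ratio of the list was 0.03 against -0.04 over all genes. Sall3, a relative of Sall4, had 43.3 CPM in FGF9-treated cells and 13.9 CPM in control cells, a log2 ratio of 1.63 (1.53 to 1.74), in contrast to the level Sall4. Dppa3, listed beside Dppa4 by name, had a ratio of -0.76, and Dppa2 of 0.07 (-0.40 to 0.54). Zbtb32, a relative of Zbtb16, had a ratio of -0.54. Foxo3, with 43.0 CPM in FGF9-treated cells and 59.6 CPM in control cells, had a ratio of -0.47, and Foxo4 of 0.03. Nanos1 had a ratio of -0.28, Lin28b of -0.10, Boll, a relative of Dazl, of 0.03, and Taf4 of 0.04.

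Of 14 genes listed for FOXO1 and the PI3K pathway, 2 were higher and 2 lower past the fold, with a median of -0.20. The list held Pdk1 (-0.01), in mouse the gene of a pyruvate dehydrogenase kinase, beside the pathway kinase gene Pdpk1 (0.22). Pik3r1 and Pik3ca, subunits of PI3K, had ratios of 0.89 and 0.54, whereas the kinase Akt1 had -0.59 and Tsc1, an inhibitor of mTORC1, -0.71. Among 10 let-7 targets and LIN28A partners, Igf2bp3 was higher (0.70) and Hmga2 lower (-1.28) past the fold, Hmga2 from 89 UMIs in FGF9-treated cells and 218 in control cells. Of 12 further germ cell genes 0 were higher and 2 lower. These were Sycp3 and Tdrd9, at -0.72 and -0.66, while Mael and Piwil2 had -0.49 each. The 17 genes of NANOS2 partners and deadenylation, the 14 of TFIID and the 13 of the SALL4-associated NuRD complex had 0 members past the fold in either direction. Of the TFIID genes Taf9 had the ratio of largest size, -0.42. Of the NuRD genes Chd3 had -0.48 and Chd4 0.33, and of the deadenylation genes Cnot6l had 0.35.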

How the data were processed

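Gene UMI counts and KIT tag counts were deposited per barcode as raw counts, which the authors made with Cell Ranger 3.1.0 against mm10; the labels name Seurat 3.1 for later steps. Each treatment had 1 library. The members, lists and tests were chosen with earlier results of these data known. Named genes were the 9 regulators, class and state genes, up to 4 genes with the largest ratio of each list and relatives of the regulators by name, and the 2 genes most like each regulator.

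UMIs were summed over cells and scaled to 1000000 UMIs of the gene total. Intervals are exact (Poisson, and Clopper-Pearson for ratios and shares, 95%) and treat UMIs as independent. A limit of 0 is 3 counts. Doublets were not called, and an alternative left out cells over 2.5 times the median UMIs. Feeder-side barcodes had Vim plus S100a6 of at least 40 UMIs and at most 2 UMIs of Ddx4, Tex101 and Mael. No model across libraries was fitted; edgeR 4.0.16 gave TMM factors under R 4.3.3. Python 3.11.15, numpy 2.4.6, scipy 1.17.1 and pandas 2.3.3 were used, and scripts were tested on simulated data. In GENCODE, 32235 of 32285 gene identifiers were found. Totals were 67068085 UMIs in FGF9-treated cells and 67689739 in control cells.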

Additional observations from a re-analysis of the deposited data

Results flagged for a closer look

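Nanos3 had opposite signs in the libraries for the Neurog3 class over the Gfra1 class, with a log2 ratio of -0.14 (-0.27 to -0.01) in FGF9-treated cells and 0.20 (0.10 to 0.31) in control cells. Dazl did so for cells with over without a UMI of Mki67 or Top2a, at 0.09 in FGF9-treated cells and -0.03 in control cells. Neither difference between the libraries was tested. The Nanos3 value of FGF9-treated cells was 0.02 (-0.20 to 0.24) in cells thinned to 5000 UMIs and -0.05 (-0.21 to 0.11) in cells with at most 10% mt- UMIs.

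In the barcodes outside the cell filter, which no comparison used, Nanos2 had 4.55 CPM from 17 UMIs in the FGF9-treated library and 0.323 CPM from 1 UMI in the control library, and Dazl had 589 CPM in the FGF9-treated library and 515 CPM in the control library. All barcodes outside the filter, feeder-side ones included, had medians of 2193 UMIs and 58.1% mt- UMIs in the FGF9-treated library, and 2223 UMIs and 75.4% in the control library.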

How the results depend on the processing

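The depth limits Nanos2 and the Kit class of FGF9-treated cells most, with sums of 9 to 262 and 79 cells. No paired analysis was possible because the treatments share only replicate number 1, and with 1 library each no library could be left out. Between libraries, Nanos2 ranged from 0.57 to 1.11 and Foxo1 from -0.62 to -0.50 over 11 alternatives, each past the fold in 13 of 14, the exception being a fold of 1. At a fold of 1 there were 0 calls in each of the 4 comparisons, and at 0.25 there were 4 between libraries, 15 within classes, 11 between classes and 4 against cells with none. The share of all genes past the limit was not taken under the alternatives. Counts of regulators under an alternative thus have no background beside them. Within classes, where 7 ratios were past the fold, 4 were so after thinning to 5000 UMIs, of which 2 (Foxo1 in the Neurog3 class and in cells with none) were among the 7 and 2 were others (Lin28a in the Neurog3 class, -0.77, and Dppa4 in the Kit class, 0.75). Without the deepest and the shallowest decile of cells, an alternative chosen after seeing the data, 4 of the 7 were kept and no other was gained. Between classes, where 3 were, 5 were with a class set at 2 UMIs, none of them among the 3. With every cell that had a UMI of the class gene, so that the classes shared cells, 1 was. Without those deciles 5 were, the 3 and 2 others. The others, in control cells, were Nanos2 in the Neurog3 over the Gfra1 class (-0.62) and Lin28a in the Kit over the Neurog3 class (-0.52). Against cells with none, where 2 were, 1 was after thinning, 1 with a limit of 10% mt- UMIs, 1 in cells without Mki67 or Top2a UMIs, 4 with a class set at 2 UMIs, of which 3 were others, and 4 without the deciles, of which 2 were others. Among ratios past the fold, the sign turned for Lin28a in the Kit class between libraries (0.17) and for Lin28a in the Kit over the Neurog3 class of FGF9-treated cells (0.34), both after thinning, and for Foxo1 in the Kit class between libraries (0.21) in cells without Mki67 or Top2a UMIs; the cause was not tested. Ratios not past the fold also changed sign, among them Nanos2 in the Neurog3 class between libraries, which was 0.62 and past the fold with every cell that had a Neurog3 UMI. Of 1917 ratios of a regulator under an alternative, 1733 stayed inside the interval of the value reported. Of those that did not, 75 moved and 1 turned in cells without Mki67 or Top2a UMIs, against 77 that stayed inside, and 39 moved with a class set at 2 UMIs, against 105 that stayed inside. TMM factors moved ratios by at most 0.07.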
